A study of Mus musculus with 12 samples.

Results

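NRF2 is the main inducible factor of the response to electrophiles and oxidants, and 10 genes of its pathway were followed here: Nfe2l2, which encodes NRF2, its inhibitor Keap1, and the stress genes Nqo1, Hmox1, Txnrd1, Srxn1, Osgin1, Prdx1, Txn1 and Sqstm1. They were chosen by name, from the gene name or Entrez number in the array files, and not by a rule on their values. Earlier results of these data were known when they were chosen. The 10 genes, among 26228 named genes, had 14 of the 61657 non-control spots: 3 for Prdx1, 2 each for Txnrd1 and Sqstm1, and 1 for each other gene. All 14 spots were above background on all 12 arrays.

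Total RNA from female B6C3F1/Nctr mice was labelled with Cy3 and measured on 12 Agilent arrays. The 4 groups of 3 arrays were lung after acrylamide at 0.7 mM (title numbers 28, 29 and 30), lung without acrylamide (4, 5 and 6), liver after acrylamide at 0.7 mM (27, 29 and 30) and liver without acrylamide (1, 3 and 4). Arrays are named by tissue, treatment and this number. Age is given only as matched between the groups, and neither the route of exposure nor how long it lasted was available from the labels used here. The labels do not tie the arrays to separate mice. The p-values below therefore rest on the scatter of these samples alone, part or all of which may be technical. Acrylamide is a small electrophile that reacts with thiols.

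NRF2 is held in the cytosol and sent for degradation by KEAP1, whose reactive cysteines sense electrophiles. When KEAP1 is modified, NRF2 reaches the nucleus, pairs with a small Maf protein and binds antioxidant response elements beside genes that detoxify quinones, cleave heme and run the thioredoxin cycle. Liver and lung both use the pathway, liver against reactive metabolites and lung against inhaled oxidants.

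The antioxidant response element is the sequence through which NRF2 acts on its target genes, so the promoters that hold its core are shown first. RefSeq promoter windows (build GRCm38.p6, 250 bases before to 50 after a transcription start) were given for 9 of the 10 genes, in 11 windows. Hmox1 had none and was not searched. The core TGACNNNGC, searched on both strands, was in windows of 4 of these 9 genes, against 14.0% of 27025 genes with a window. Shown are the core matches lying before the start of Nfe2l2 (chr2:75704875-75704913, minus strand), Prdx1 (chr4:116685446-116685494, plus strand) and Txnrd1 (chr10:82859094-82859142, plus strand), on the strand of the gene, with the match in capitals. The matches of Prdx1 and Txnrd1 read on the opposite strand.
Nfe2l2: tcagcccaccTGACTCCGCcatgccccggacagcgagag
Prdx1: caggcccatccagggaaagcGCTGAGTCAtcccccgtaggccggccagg
Txnrd1: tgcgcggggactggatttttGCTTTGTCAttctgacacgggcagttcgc

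The fourth gene with a core match, Srxn1, had it after its start. Srxn1 and Osgin1 are shown because each held TGAGTCAGC before its start, which fits the looser motif TGANNNNGC, a form that every core match also fits. That form was not planned in advance. It was in 6 of the 9 genes, against 45.0% of all genes. The windows are chr2:152105459-152105507 for Srxn1 and chr8:119437028-119437076 for Osgin1, both on the plus strand, and the Osgin1 match reads on the opposite strand.
Srxn1: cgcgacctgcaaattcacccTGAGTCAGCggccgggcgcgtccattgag
Osgin1: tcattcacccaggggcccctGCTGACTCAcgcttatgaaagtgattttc

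The stricter form, the core followed by A, was in 1 of the 9 genes, Txnrd1, against 3.45% of all genes. A match is a stretch of letters only, and its absence from a window says nothing of the factor.

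The labels disagree on tissue for 6 arrays, which are lung by title and source name but liver by their tissue entry, and marker levels were read first. Signal below is intensity divided by the array's 75th percentile, or its log2. The summed signal of 8 hepatocyte markers was 14.6 to 29.9 on the lung arrays and 2365 to 3801 on the liver arrays. The 8 alveolar type 2 markers summed to 786.9 to 1021 on the lung arrays and to 8.11 to 19.9 on the liver arrays, where Nkx2-1 was above background on no array. The titles were followed. Liver acrylamide 30 had the highest background limit, 16.8 intensity units against 2.35 to 4.45 on the others, and 34287 spots above it against 46450 to 51099.

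In neither tissue did acrylamide move a gene of the pathway past the test. With limma and a Benjamini-Hochberg adjusted p under 0.05, 0 of the 10 were called in lung, where 0% of 22252 genes were, and 0 of the 10 in liver, where 0% of 21169 genes were. At an unadjusted p under 0.05, 0 of the 10 passed in lung, against 4.95% (1102) of all genes, and 1 of the 10, Osgin1, passed in liver, against 6.04% (1278). The median difference of the 10 was 0.01 log2 units in lung, where that of all genes was -0.01, and -0.06 in liver, where that of all genes was -0.02. In lung 5 of the 10 were higher with acrylamide, against 48.3% of all genes, and in liver 3 of the 10, against 46.9%.

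**Figure D1:**
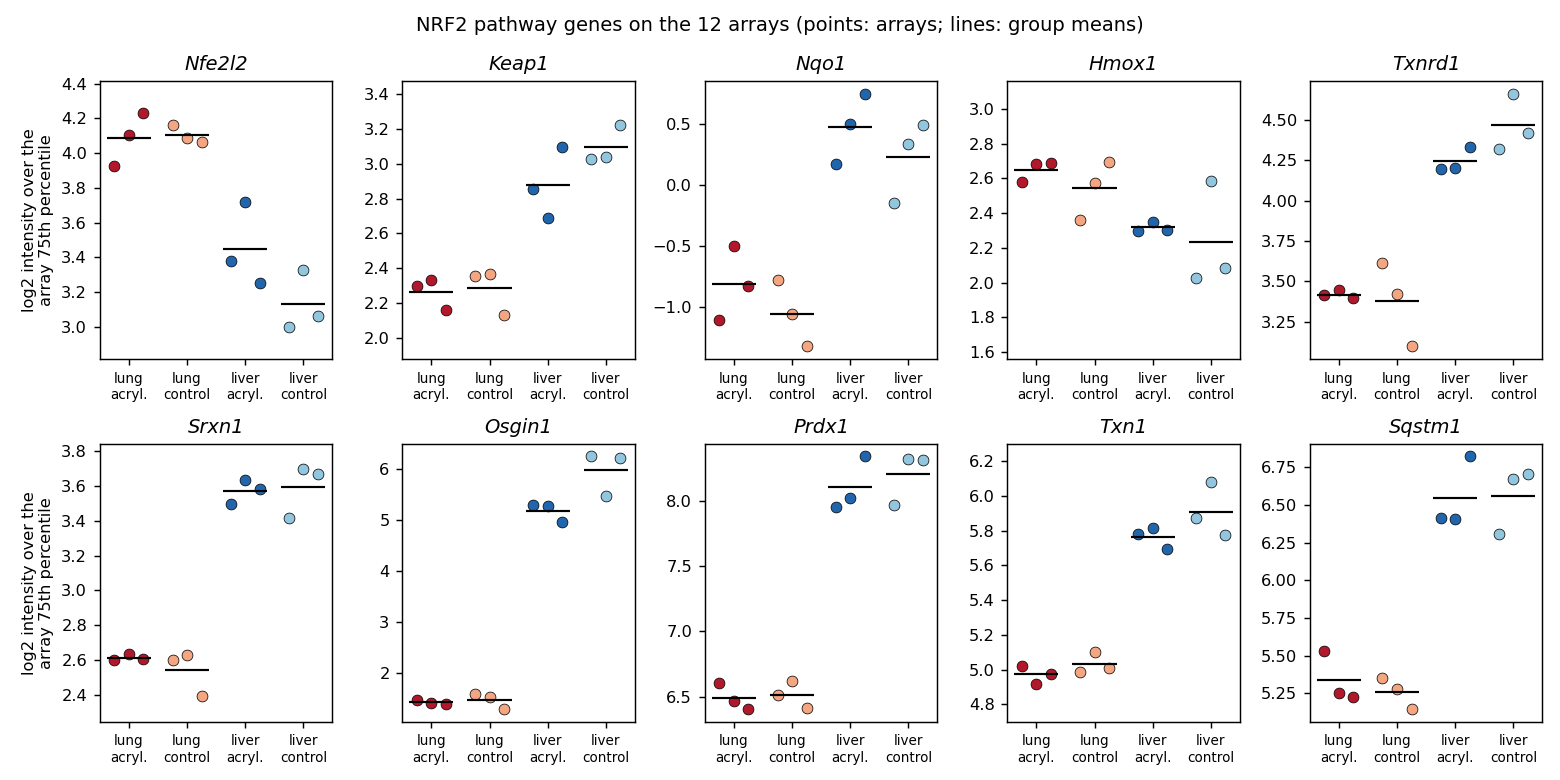
Log2 intensity over the array's 75th percentile (vertical axis, with its own range in each panel) of the 10 genes on the 12 arrays. Points are single arrays and lines are means of 3. The acrylamide and control points overlap in every panel and tissue except for Osgin1 in liver, and the lung points lie apart from the liver points in 9 panels, Hmox1 being the exception.

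Nfe2l2 (Entrez 18024), the factor itself, read 3.92, 4.11 and 4.23 log2 units above the 75th percentile on lung acrylamide 28, 29 and 30, against 4.16, 4.09 and 4.07 on lung control 4, 5 and 6. In liver it read 3.38, 3.72 and 3.25 on acrylamide 27, 29 and 30, against 3.00, 3.33 and 3.06 on control 1, 3 and 4. The groups overlapped in both tissues, in liver because control 3 lay above acrylamide 30. The difference was -0.02 ± 0.11 log2 units in lung (SE, 95% interval -0.29 to 0.26) and 0.32 ± 0.18 in liver (-0.12 to 0.77, adjusted p = 0.784).

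Keap1 (Entrez 50868), the thiol sensor that holds NRF2 back, read 2.3, 2.33 and 2.16 on lung acrylamide arrays, against 2.35, 2.37 and 2.13 on lung control arrays. In liver it read 2.85, 2.69 and 3.10 with acrylamide, against 3.03, 3.04 and 3.22 in controls. The lung groups covered nearly the same range, and in liver acrylamide 30 lay among the controls and the other 2 below them. The intervals ran from -0.29 to 0.25 in lung and from -0.61 to 0.18 in liver, around differences of -0.02 and -0.22.

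Nqo1 (Entrez 18104), a quinone reductase and a standard readout of NRF2 activity, read -1.11, -0.50 and -0.83 on lung acrylamide arrays, against -0.78, -1.06 and -1.33 on lung control arrays. In liver it read 0.17, 0.50 and 0.75 with acrylamide, against -0.14, 0.34 and 0.495 in controls. In lung acrylamide 29 lay above all controls, and in liver acrylamide 29 and 30 did, with the others inside the range of the controls. The difference was 0.24 ± 0.21 in lung (SE, interval -0.28 to 0.76) and 0.24 ± 0.24 in liver (-0.34 to 0.82), so a rise of up to 1.69-fold in lung and 1.77-fold in liver, or a fall, lay within the interval. Leaving out 1 array moved it to between 0.0857 (without acrylamide 29) and 0.39 in lung, and to between 0.0572 (without control 1) and 0.40 in liver. The adjusted p was 0.998 in lung and 0.847 in liver.

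Hmox1 (Entrez 15368), the inducible oxygenase that cleaves heme, read 2.58, 2.68 and 2.69 on lung acrylamide arrays, against 2.36, 2.58 and 2.69 on lung control arrays. In liver it read 2.3, 2.35 and 2.31 with acrylamide, against 2.03, 2.58 and 2.09 in controls. The liver acrylamide arrays were close together, inside the wider range of the controls, whose highest array was control 3. The difference was 0.11 ± 0.12 in lung (interval -0.18 to 0.40) and 0.09 ± 0.19 in liver (-0.37 to 0.54), with adjusted p = 0.998 and 0.930.

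The thioredoxin cycle reduces peroxides through Prdx1, a peroxiredoxin, which is reduced by thioredoxin (Txn1), which in turn is reduced by Txnrd1 with NADPH. Txnrd1 (Entrez 50493) read 3.41, 3.44 and 3.40 on lung acrylamide arrays, against 3.61, 3.42 and 3.10 on lung control arrays, and in liver 4.20, 4.205 and 4.33 with acrylamide, against 4.32, 4.66 and 4.42 in controls. Txn1 (Entrez 22166) read 5.02, 4.92 and 4.98 on lung acrylamide arrays, against 4.99, 5.10 and 5.01 on lung control arrays, and in liver 5.78, 5.82 and 5.70 with acrylamide, against 5.87, 6.08 and 5.77 in controls. The groups of both genes overlapped in both tissues, for Txnrd1 in liver only in that acrylamide 30 lay just above control 1. Their liver differences of -0.22 and -0.14 had intervals of -0.59 to 0.14 and -0.49 to 0.20. In lung the differences were 0.04 (-0.32 to 0.41) and -0.06 (-0.28 to 0.16).

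Srxn1 (Entrez 76650), sulfiredoxin, restores peroxiredoxins that peroxide has overoxidised. It read 2.60, 2.63 and 2.60 on lung acrylamide arrays, against 2.60, 2.62 and 2.39 on lung control arrays, and in liver 3.5, 3.63 and 3.58 with acrylamide, against 3.42, 3.70 and 3.67 in controls. The acrylamide arrays of each tissue lay close together, among or beside their controls. The difference was 0.07 in lung (interval -0.18 to 0.32) and -0.02 in liver (-0.37 to 0.33).

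Osgin1 (Entrez 71839), a growth inhibitor named for its induction by oxidative stress, was the one gene of the 10 whose liver groups did not overlap at the spot that represents it, against 12.2% of all genes, 6.74% of them lower with acrylamide. It read 5.31, 5.27 and 4.96 on liver acrylamide 27, 29 and 30, against 6.25, 5.48 and 6.22 on liver control 1, 3 and 4. All acrylamide arrays were below all controls, although control 3 lay closer to the acrylamide arrays than to the other controls. The difference was -0.81 ± 0.25 log2 units (SE, interval -1.42 to -0.19, unadjusted p = 0.0180), and it did not pass after adjustment (adjusted p = 0.784). Its size ranked 1308 among the 21169 genes tested.

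The Osgin1 difference in liver ran from -1.06 without control 3 to -0.67 without control 1, and it was -0.73 in title row 1 (the digit before the point in an array's title code) and -0.95 between the 2 liver arrays of row 2. The lowest adjusted p over these and the other settings was 0.138. In lung the gene read 1.47, 1.41 and 1.4 with acrylamide, against 1.58, 1.53 and 1.29 in controls, a difference of -0.05 (interval -0.32 to 0.23). For none of the 10 genes did the lung groups separate, against 10.9% of all genes.

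**Figure D2:**
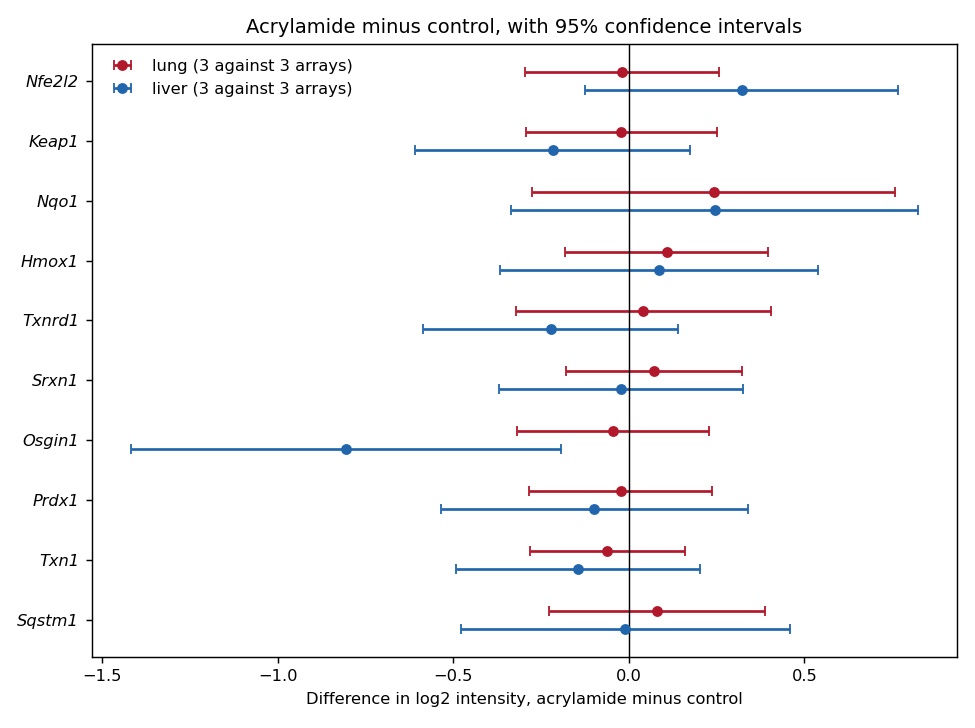
Acrylamide minus control in log2 intensity (horizontal axis) for each gene, as points with 95% confidence intervals, lung above liver. Only the interval of Osgin1 in liver, -1.42 to -0.19, leaves out 0, and the adjusted p was 0.784.

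Sqstm1 (Entrez 18412) encodes p62, an autophagy receptor that also binds KEAP1. Its brighter spot read 5.53, 5.25 and 5.23 on lung acrylamide arrays, against 5.35, 5.28 and 5.15 on lung control arrays, and in liver 6.42, 6.41 and 6.82 with acrylamide, against 6.31, 6.67 and 6.70 in controls. Its groups overlapped in both tissues, and the differences were 0.08 (interval -0.23 to 0.39) and -0.01 (-0.48 to 0.46). Prdx1 (Entrez 18477), at its brightest spot, read 6.60, 6.47 and 6.40 on lung acrylamide arrays, against 6.51, 6.62 and 6.41 on lung control arrays, and in liver 7.95, 8.02 and 8.34 with acrylamide, against 7.97, 8.32 and 8.32 in controls. Here too the groups overlapped, with differences of -0.02 (-0.28 to 0.24) and -0.10 (-0.53 to 0.34).

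The spots of Prdx1 and Sqstm1 did not agree in liver. A dimmer Prdx1 spot read 2.04, 2.09 and 1.41 on liver acrylamide 27, 29 and 30, against 1.26, 1.28 and 1.31 on control 1, 3 and 4, a difference of 0.56 ± 0.22 (SE, unadjusted p = 0.0426, adjusted p = 0.737 by limma over 47024 spots). The remaining Prdx1 spot read 6.38, 6.54 and 5.80 with acrylamide, against 5.84, 5.94 and 5.885 in controls, and differed by 0.35 ± 0.22. The dimmer Sqstm1 spot read 2.65, 2.63 and 2.26 with acrylamide, against 2.17, 1.97 and 2.23 in controls, and differed by 0.40 ± 0.18 (adjusted p = 0.739).

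On these 3 spots acrylamide 27 and 29 stood above the controls and acrylamide 30 lay close to them, just above on the dimmest Prdx1 and the dimmer Sqstm1 spot and just below on the other, while on the brightest spots of both genes acrylamide 30 was the highest of its group. With all spots of a gene averaged, the liver difference was 0.27 for Prdx1 and 0.19 for Sqstm1, in place of -0.10 and -0.01. Both Txnrd1 spots read lower with acrylamide, by -0.09 and -0.22. In lung the dimmer Sqstm1 spot read 1.5, 1.34 and 1.5 with acrylamide, against 0.73, 1.2 and 1.38 in controls, and the dimmest Prdx1 spot differed by 0.22.

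**Figure D3:**
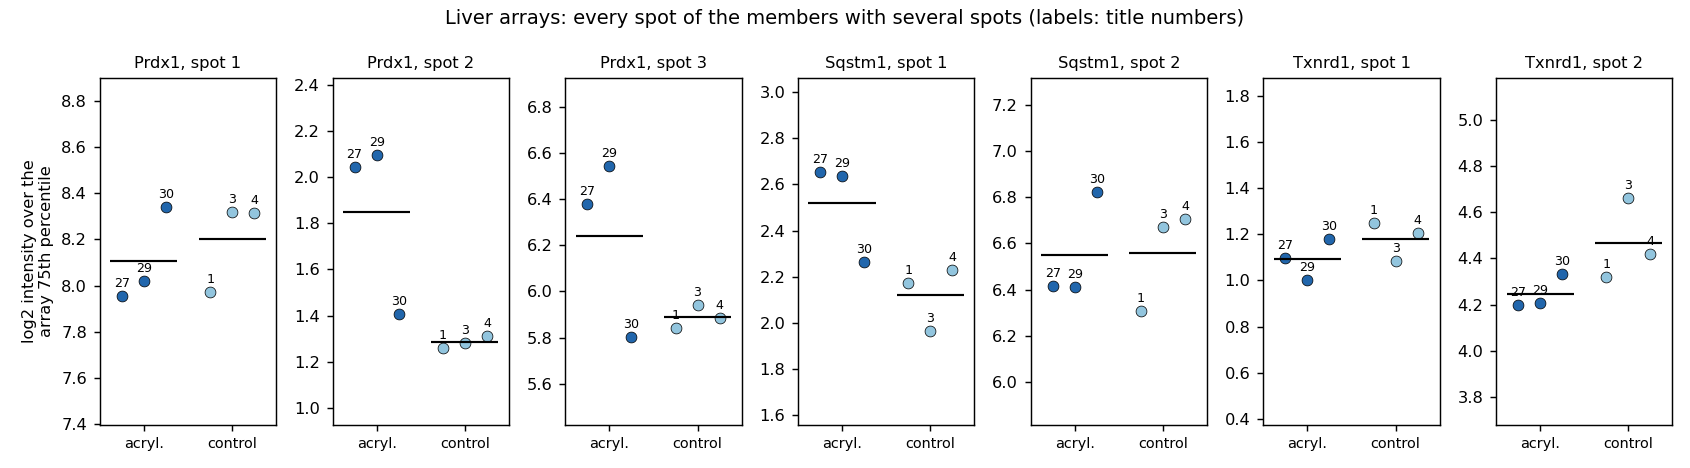
Log2 intensity over the array's 75th percentile on liver arrays for every spot of Prdx1, Sqstm1 and Txnrd1, with title numbers at the points and lines at group means. Each panel spans the same number of log2 units. On Prdx1 spots 2 and 3 and Sqstm1 spot 1, acrylamide 27 and 29 lie above all controls, while on Prdx1 spot 1 and Sqstm1 spot 2 they do not.

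Markers of other cell types also differed among the liver arrays. The mean log2 signal of the 8 alveolar type 2 markers was -1.82, -2.48 and -3.60 on liver acrylamide 27, 29 and 30, against -4.39, -4.45 and -4.09 on control 1, 3 and 4. For the 5 club cell markers it was 0.63, 0.31 and -1.90, against -1.93, -2.26 and -1.55. By this mean acrylamide 27 and 29 lay above the controls on both lists, and acrylamide 30 only on the first. Only 4 of the 8 alveolar type 2 markers were above background on all arrays of either liver group. Of the 5 club cell markers 4 were so in controls and 3 with acrylamide. The means therefore partly average values not above background, and acrylamide 30 had the highest background limit, as given above. The summed signal of the alveolar type 2 list was 8.11 to 19.9 with acrylamide and 8.96 to 9.82 in controls, where Sftpb too was above background on no array, and that of the club cell list was 179.2 to 199.0 with acrylamide, where Cckar was above background on no array, and 144.5 to 169.0 in controls. By the sum acrylamide 30 was the lowest of the 6 liver arrays on the first list and above all controls on the second, so mean and sum place it differently. The sum follows the brightest markers of a list, and the mean follows all of them. Whether the liver signal of either list came from these cell types was not tested.

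The 10 Kupffer cell and macrophage markers, all above background on every liver array, summed to 67.6 to 73.9 with acrylamide and to 44.7 to 62.8 in controls. The 5 neutrophil markers on the array summed to 0.589 to 1.19 with acrylamide, where Cxcr2 was above background on no array, and to 1.34 to 3.68 in controls. The sums of neither list overlapped between the liver groups, but the mean log2 signal of the neutrophil list did, at -4.66 to -3.73 with acrylamide and -4.03 to -3.02 in controls. Hepatocyte markers summed to 2365 to 3801 with acrylamide, around the 2930 to 3151 of the controls. In lung, 6 alveolar macrophage markers summed to 140.3 to 155.5 with acrylamide, above the 89.0 to 131.2 of the controls, and 6 endothelial markers to 76.9 to 85.5, below the 88.1 to 110.4 of the controls. By mean log2 signal both lists overlapped, at 3.27 to 3.70 with acrylamide and 2.74 to 3.37 in controls for the first, and at 2.26 to 2.39 and 2.3 to 2.63 for the second. In lung the sums of the hepatocyte, alveolar type 2, club cell, Kupffer cell and macrophage, neutrophil and erythroid lists overlapped between the groups. In liver those of the alveolar macrophage, endothelial and erythroid lists did. The part of these cell types in the lung values, and in the liver values of Osgin1, Prdx1 and Sqstm1, was not tested.

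The effect of acrylamide in lung minus that in liver was called for 0 of the 10 genes, and for 0% of 23300 genes. Osgin1 had the largest of the 10 differences, 0.76 ± 0.29 log2 units (SE, interval 0.12 to 1.4), with an unadjusted p of 0.0243, under 0.05 as in 4.44% of all genes, and an adjusted p of 0.994. Nfe2l2 came next at -0.34 (-0.81 to 0.13) and Txnrd1 at 0.26 (-0.20 to 0.72). For Nqo1 it was 0.00 (-0.75 to 0.74) and for Hmox1 0.02 (-0.47 to 0.51). A wide interval around 0 does not show that the tissues responded alike.

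Related genes gave no call for acrylamide either. Lists of 4 kinds were read beside the pathway: 17 partners and regulators of NRF2, 24 enzymes of the thioredoxin, peroxiredoxin and superoxide systems, 26 further NRF2 targets of glutathione synthesis, NADPH supply, iron and heme, and 18 autophagy genes that act with Sqstm1. All were tested except 1 further target in liver, and 0 passed in lung, in liver or in the comparison of the tissues' effects. Of all genes 0% passed in each of these comparisons too.

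In lung the partners read higher in 7 of 17 genes, the thioredoxin group in 6 of 24, the further targets in 12 of 26 and the autophagy genes in 11 of 18, with medians of -0.06, -0.07, -0.01 and 0.07 log2 units beside -0.01 for all genes. Maff, a small Maf partner, differed by 0.53 ± 0.16 (SE, unadjusted p = 0.0159, adjusted p = 0.963), and Nfe2l3, a relative of NRF2, by -0.43 ± 0.12 (adjusted p = 0.959). The sestrins Sesn3 and Sesn1, stress proteins that act with peroxiredoxins, differed by -0.40 and -0.33, and the acetyltransferase Ep300, a coactivator, by -0.34. Gsk3b stood at -0.23, Sod2 at -0.26 and Cat at -0.25. Among the autophagy genes Map1lc3a stood at 0.31, Wdfy3 at -0.31, and Tax1bp1 and Wipi2 at 0.12. Of the further targets Htatip2 stood at 0.25, Abcc4 at -0.21, Gpx2 at 0.21 and G6pdx at 0.20. At an unadjusted p under 0.05 by limma, 3 of the 17 partners and 2 of the 24 thioredoxin group enzymes passed in lung. None of the 26 further targets and none of the 18 autophagy genes did, against 4.95% of all genes. In lung, groups without overlap numbered 1 higher and 4 lower among the partners, and 0 and 4 in the thioredoxin group. Among the further targets they numbered 1 and 1, and among the autophagy genes 0 and 0. Of all genes 10.9% had no overlap in lung, counting both directions, and the lists were not tested against this share.

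In liver 6 of 17 partners, 10 of 24 thioredoxin group enzymes, 8 of 25 further targets and 9 of 18 autophagy genes read higher, with medians of -0.12, -0.02, -0.07 and 0.01 beside -0.02 for all genes. Quantile scaling put 15 of the 24 thioredoxin group enzymes higher. Htatip2, an oxidoreductase among the further targets, differed by 0.53 ± 0.21 (unadjusted p = 0.0455, adjusted p = 0.784). It was the one list gene with an unadjusted p under 0.05 in liver, where 6.04% of all genes were under it. Among the partners Nfe2, a relative of NRF2 in blood-forming cells, had the largest difference, -0.997 ± 0.74 (adjusted p = 0.814), followed by Ep300 at -0.49 ± 0.21, Gsk3b at -0.45 and Crebbp at -0.35. In the thioredoxin group mitochondrial superoxide dismutase Sod2 stood at -0.35 ± 0.17 and the glutaredoxin Glrx at 0.34 ± 0.17, both with adjusted p = 0.784, and Sod3 and Sesn3 at -0.30 and -0.29. Groups without overlap numbered 1 higher and 1 lower among the partners, and 2 and 1 in the thioredoxin group. Among the further targets they numbered 1 and 1, and among the autophagy genes 0 and 1. Of all genes 12.2% had no overlap, counting both directions. Among the list genes named for liver, the groups of Htatip2, Glrx, Ep300, Sesn3 and Calcoco1 did not overlap and those of the others did. Among the autophagy genes the receptor genes Calcoco1 and Nbr1 stood at -0.81 ± 0.37 and 0.52 ± 0.23 (adjusted p = 0.784 each), Becn1 at 0.49 and Wdfy3 at -0.46. Of the further targets Cbr3 stood at -0.29, Gpx2 at -0.28 and Gclc, the catalytic subunit of glutathione synthesis, at -0.24 ± 0.16.

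The tissues differed far more than the treatments. In untreated mice 9 of the 10 genes were called between lung and liver, where 74.4% of 22441 genes were called. Of these, Nfe2l2 was higher in lung, as were 32% of all genes, and 8 were lower, against 42.4% of all genes. On the acrylamide arrays, which share none with the untreated comparison, all 10 were called, against 72.8% of 22115 genes, 2 higher (31.3% of all genes) and 8 lower (41.5%). Both shares of the 10 called were above those of all genes, and neither these nor the shares that were lower were tested against all genes. In whole tissue, fewer cells of a type and less RNA per cell cannot be told apart, and tissue goes with the first number of the title codes, so that number and tissue cannot be told apart either.

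The scale bears on these values: the median of all genes was -0.28 log2 units, lung minus liver, in untreated mice and -0.25 with acrylamide, but 0.01 and 0.07 with quantile scaling. All genes called split into 7179 higher and 9521 lower in untreated mice, and with quantile scaling into 8342 and 8005. With acrylamide the split was 6916 and 9188, and with quantile scaling 8193 and 7412. The median of the 10 genes was -1.07 in untreated mice and -0.89 with acrylamide, and -0.55 and -0.42 with quantile scaling.

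Nfe2l2 averaged 4.11 ± 0.05 in untreated lung and 3.13 ± 0.17 in untreated liver (SD, n = 3 each), a difference of 0.98 ± 0.14 log2 units (SE, 1.97-fold, adjusted p = 0.000836), or 1.25 above the median of all genes. On the acrylamide arrays it averaged 4.09 ± 0.15 in lung and 3.45 ± 0.24 in liver, a difference of 0.64 ± 0.17 (1.55-fold, adjusted p = 0.0152). Every lung array was above every liver array. Without lung acrylamide 30 the second difference was 0.56 and lost its call (adjusted p = 0.0518).

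Keap1 was lower in lung, at 2.28 ± 0.13 in untreated lung and 3.10 ± 0.11 in untreated liver (SD), by -0.81 ± 0.14 log2 units (SE, adjusted p = 0.00182), and by -0.62 ± 0.14 on the acrylamide arrays (adjusted p = 0.00927). With quantile scaling the acrylamide difference was -0.31 (adjusted p = 0.0865). The factor and its inhibitor therefore lay on opposite sides, and their log2 ratio on an array does not depend on the percentile taken off that array.

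The Nfe2l2 spot minus the Keap1 spot read 1.63, 1.77 and 2.07 log2 units on lung acrylamide 28, 29 and 30 and 1.81, 1.72 and 1.93 on lung control 4, 5 and 6. In liver it read 0.53, 1.03 and 0.15 on acrylamide 27, 29 and 30 and -0.03, 0.29 and -0.16 on control 1, 3 and 4. All lung arrays were above all liver arrays, by 1.52 on average over 6 arrays of each tissue, or 2.87-fold. Different spots bind with different strength, so its zero has no meaning and only differences between arrays do. Acrylamide minus control was 0.00 in lung and 0.54 in liver, where control 3 lay above acrylamide 30. With quantile scaling the gap between the tissues was 1.72, and acrylamide minus control was -0.0038 in lung and 0.48 in liver. In exact two-sided permutation tests of 5 comparisons of the ratio, lung against liver over all arrays gave p = 0.00216 (adjusted p = 0.0108), the smallest that 6 against 6 arrays allow. By the same exact tests lung against liver gave p = 0.10 in untreated mice and with acrylamide, the smallest possible with 3 against 3, and acrylamide against control gave p = 0.20 in liver and p = 1.0 in lung. The ratio was chosen after the values were seen, so these tests are no independent evidence. The adjustment over the 5 comparisons does not cover that choice. The test over all arrays also pools both treatments and ignores title numbers that recur between the tissues.

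**Figure D4:**
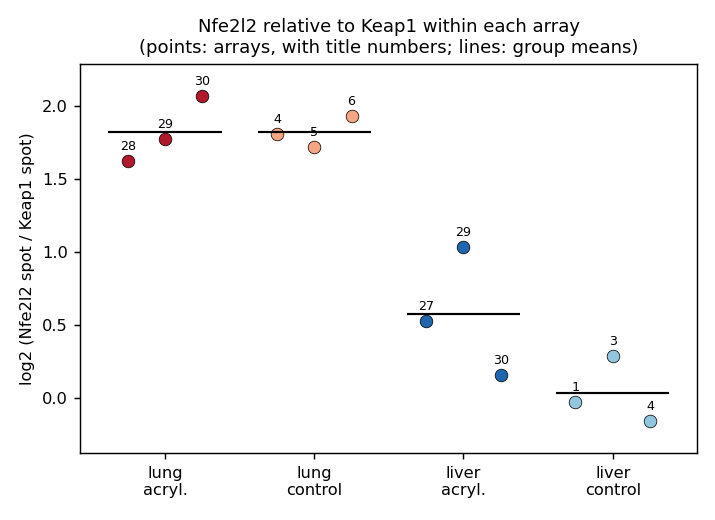
Log2 of the Nfe2l2 spot over the Keap1 spot within each array (vertical axis), with title numbers at the points and lines at means of 3 arrays. The lung arrays lie between 1.63 and 2.07 and the liver arrays between -0.16 and 1.03.

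Osgin1 showed the widest gap of the 10. It averaged 1.47 ± 0.15 in untreated lung and 5.98 ± 0.44 in untreated liver (SD, n = 3 each), 22.9-fold lower in lung (-4.52 ± 0.24 log2 units, SE, adjusted p = 9.11e-06). On the acrylamide arrays it averaged 1.42 ± 0.04 in lung and 5.18 ± 0.19 in liver, 13.5-fold lower (-3.76 ± 0.13, adjusted p = 5.49e-06). It was also called in all other settings tried, between -4.77 and -4.11 in untreated mice and between -3.87 and -3.39 with acrylamide. The gap was 0.76 log2 units smaller with acrylamide, which is the comparison of the tissues' effects given above, and that difference did not pass.

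Nqo1 averaged -1.06 ± 0.27 in untreated lung and 0.23 ± 0.33 in untreated liver (SD), 2.44-fold lower (-1.28 ± 0.23, SE, adjusted p = 0.00224), and was 2.44-fold lower on the acrylamide arrays too (-1.29 ± 0.22, adjusted p = 0.00299). Hmox1 was the other gene of the 10 that read higher in lung. It averaged 2.54 ± 0.17 in untreated lung and 2.23 ± 0.31 in untreated liver, a difference of 0.31 ± 0.20 that was not called (interval -0.17 to 0.79, adjusted p = 0.193), with liver control 3 among the lung arrays. On the acrylamide arrays it averaged 2.65 ± 0.06 in lung and 2.32 ± 0.03 in liver, a difference of 0.33 ± 0.09 (adjusted p = 0.0213).

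The Hmox1 call was not firm. Without liver control 3 the untreated difference was 0.49 (adjusted p = 0.0384), and with quantile scaling 0.60 (adjusted p = 0.0172). The acrylamide call was lost in 1 fit of all 12 arrays (adjusted p = 0.0757) and without liver acrylamide 27, lung acrylamide 29 or lung acrylamide 30 (adjusted p = 0.0553, 0.0749 and 0.0752), while the difference stayed between 0.29 and 0.64.

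**Figure D5:**
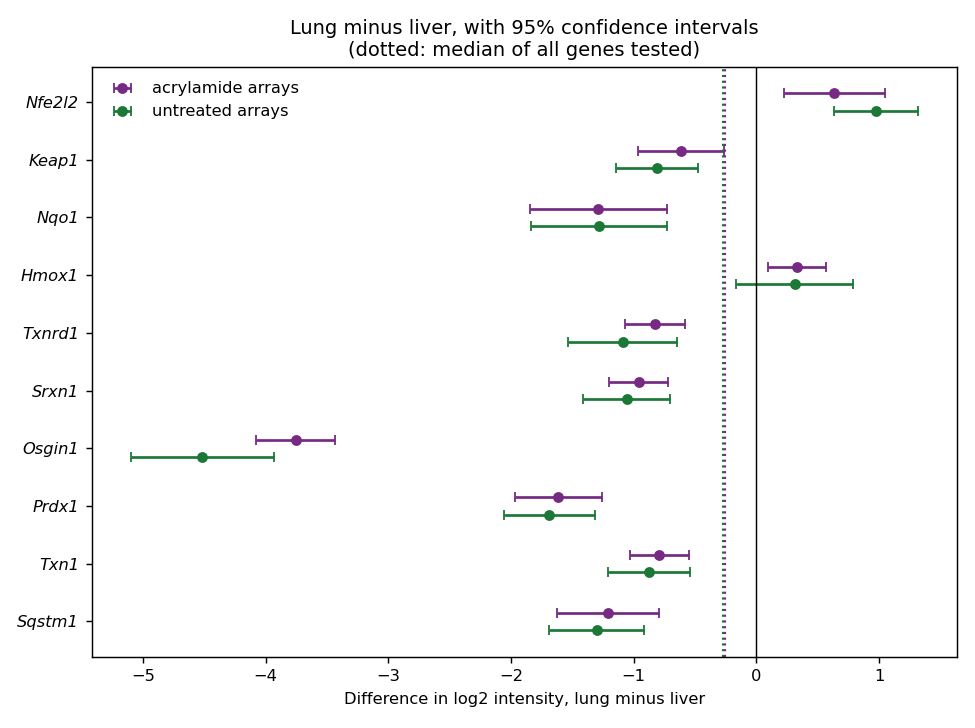
Lung minus liver in log2 intensity (horizontal axis) for each gene, as points with 95% confidence intervals, acrylamide arrays above untreated arrays. Dotted lines mark the median of all genes, -0.25 and -0.28. Nfe2l2 lies to the right of 0 in both, Osgin1 lies at -3.76 and -4.52, and the untreated interval of Hmox1 includes 0.

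The thioredoxin cycle was lower in lung at every step measured. Prdx1 was 3.22-fold lower in untreated lung than in untreated liver (-1.69 ± 0.15 log2 units, SE, adjusted p = 9.44e-05), Txnrd1 2.13-fold (-1.09 ± 0.18, adjusted p = 0.00175), Srxn1 2.08-fold (-1.06 ± 0.15, adjusted p = 0.000696) and Txn1 1.83-fold (-0.87 ± 0.14, adjusted p = 0.00128). On the acrylamide arrays they were 3.06, 1.77, 1.95 and 1.73-fold lower in lung. Sqstm1 was 2.47-fold lower in untreated lung (-1.30 ± 0.16, adjusted p = 0.000388) and 2.32-fold on the acrylamide arrays.

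Quantile scaling took 2 of these calls away in untreated mice, Txnrd1 at -0.49 (adjusted p = 0.0521) and Txn1 at -0.16 (adjusted p = 0.306), and that of Txn1 with acrylamide, at -0.16 (adjusted p = 0.238). The spots of a gene agreed here. In untreated mice the Prdx1 spots differed by -1.69, -1.54 and -1.49, the Sqstm1 spots by -1.02 and -1.30 and the Txnrd1 spots by -0.67 and -1.09, each called over all spots.

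The related lists were mixed between the tissues. Over all genes, 32% were called higher and 42.4% lower in untreated lung than in untreated liver, and 31.3% and 41.5% with acrylamide. Beside these shares, of the 17 partners and regulators 8 were higher and 5 lower in untreated lung, and likewise with acrylamide. Nfe2l3 was higher by 3.17 ± 0.17 log2 units (SE) in untreated mice and Maff by 2.79 ± 0.31, followed by the small Maf gene Mafk at 1.94 ± 0.17 and Btrc, an adaptor that sends NRF2 for degradation, at 1.82 ± 0.16. With acrylamide Maff, Mafk and Btrc stood at 3.23, 1.95 and 1.85. Nfe2l3 was above background on only 2 of 3 liver acrylamide arrays, and with each of these arrays at its background limit or its own value, whichever was higher, it was higher in lung by at least 2.89. The median of the list was 0.25 in untreated mice and 0.47 with acrylamide.

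Of the 24 thioredoxin group enzymes 18 were lower and 3 higher in lung in each comparison, with a median of -1.33 in untreated mice and -1.52 with acrylamide, where all genes gave 42.4% lower and 32% higher, and 41.5% and 31.3%. With quantile scaling 14 were lower and 5 higher in untreated mice, and 16 and 4 with acrylamide. All genes under that scaling gave 8005 lower and 8342 higher of 22441, and 7412 and 8193 of 22115. The methionine sulfoxide reductases Msra and Msrb1 were lower by -3.23 ± 0.13 and -3.19 ± 0.14 in untreated mice, catalase (Cat) by -2.96 ± 0.14 and Prdx4, the peroxiredoxin of the endoplasmic reticulum, by -2.60 ± 0.18. With acrylamide Msra, Cat and Msrb1 stood at -3.34, -3.31 and -3.23, and Txnrd2, the mitochondrial thioredoxin reductase, at -2.60.

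The 26 further targets held the largest differences of the 4 lists in either direction, those of Gpx2 and Abcc2. In untreated mice 9 were higher in lung and 16 lower, beside 32% and 42.4% of all genes, and with acrylamide 8 and 17, beside 31.3% and 41.5%. Under quantile scaling they divided into 9 and 10 in untreated mice and 9 and 13 with acrylamide. All genes under that scaling divided into 8342 and 8005 of 22441, and 8193 and 7412 of 22115. Gpx2, a glutathione peroxidase of epithelia, was higher in lung by 6.06 ± 0.41 in untreated mice and 6.54 ± 0.13 with acrylamide, and the carbonyl reductase Cbr3 by 3.79 ± 0.25 and 4.11 ± 0.13.

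Abcc2, the pump that exports conjugates into bile, was above background on only 2 of 3 untreated and 1 of 3 acrylamide lung arrays. With the lung arrays treated in the same way it was lower in lung by at least 11.29 log2 units in untreated mice and at least 11.62 with acrylamide. Gclm, the modifier subunit of glutathione synthesis, was lower by -2.98 ± 0.14 in untreated mice, and Htatip2 by -3.10 ± 0.11 with acrylamide.

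Of the 18 autophagy genes 9 were lower and 1 higher in untreated lung, and 9 and 0 with acrylamide, where all genes gave 42.4% and 32%, and 41.5% and 31.3%. The autophagy receptor gene Optn was lower by -2.09 ± 0.16 in untreated mice and -2.37 ± 0.12 with acrylamide, and Gabarapl1, which builds autophagosomes, by -1.79 and -1.89. Atg5 stood at -1.64 and -1.68, Wipi2 at -1.58 in untreated mice and Ulk1 at -1.45 with acrylamide. Quantile scaling gave 7 lower and 4 higher in untreated mice, and 7 and 5 with acrylamide. All genes under that scaling gave 8005 lower and 8342 higher of 22441, and 7412 and 8193 of 22115.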

How the data were processed

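Per the submitters' processing notes, scanner values came from Agilent Feature Extraction 10.7. Each deposited file gives a linear Cy3 intensity for 62976 spots. Whether its background was subtracted is not given in the sources used here. As an alternative, the authors' series matrix served, in which each array's deposited intensity is multiplied by a constant that brings the 75th percentile to 1000.

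Without the 1319 control spots, the 75th percentile of each array was subtracted on the log2 scale. Symbols came through the Entrez number (38054 spots), the accession (715) or the file (2242), with a RefSeq table of GRCm38.p6, and 20646 spots had none. Spots above the 95th percentile of 308 negative control spots on at least 3 arrays of a fit were tested, each gene by its spot of highest mean. limma 3.58.1 (lmFit, eBayes) in R 4.3.3 fitted each comparison over all genes, the tissues' effects over all 12 arrays, with Benjamini-Hochberg adjustment. The fits were tested on simulated data. Members, lists, marker lists and alternatives were chosen with earlier results of these data known. The text names all 10 members and up to 4 genes of each list with the largest difference among called genes, or among all where none was called (any other was picked with its values known). The number of arrays limits the precision.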

Additional observations from a re-analysis of the deposited data

How the results depend on the processing

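No member was called for acrylamide in lung, in liver or in the comparison of the tissues' effects under any alternative run, and the directions of the differences near 0 were not stable. Of 200 values recomputed for lung 18 changed sign, of 200 for liver 15, and of 240 for the tissues' effects 20, those of genes such as Sqstm1, Prdx1 and Nqo1. Osgin1 in liver kept its sign throughout. The causes were not tested.

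With quantile scaling the lung value of Prdx1 was 0.0543, the liver value of Sqstm1 0.0762, and the tissues' effects differed by -0.0001 for Txn1 and -0.0104 for Sqstm1. With the mean of a gene's spots Prdx1 stood at 0.0466 in lung, 0.27 in liver and -0.23 between the tissues' effects, and Sqstm1 at 0.19 in liver. With arrayWeights Nfe2l2 in lung was 0.0051, and the tissues' effects differed by 0.11 for Nqo1, -0.093 for Hmox1 and -0.0405 for Txn1. Median scaling put Hmox1 at -0.0074, the 75th percentile over named spots (an alternative added after seeing the data) put Nqo1 at 0.0193, and the title row as a block put Nqo1 at 0.0735, all for the tissues' effects.

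Within title row 1, lung gave -0.0156 for Txnrd1 and -0.0247 for Srxn1, and liver -0.0031 for Hmox1, 0.0017 for Prdx1 and 0.13 for Sqstm1. Within title row 2, lung gave 0.0875 for Keap1 and 0.0037 for Prdx1, and liver, with 1 array a group and no test, 0.0429 for Txn1.

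Leaving out each array in turn, lung values ran from -0.091 to 0.0621 for Nfe2l2, -0.0968 to 0.0296 for Keap1, -0.0981 to 0.16 for Txnrd1, -0.0009 to 0.12 for Srxn1, -0.13 to 0.0121 for Osgin1, -0.0792 to 0.028 for Prdx1 and -0.018 to 0.14 for Sqstm1. Liver values ran from -0.0161 to 0.26 for Hmox1, -0.11 to 0.0293 for Srxn1 and -0.15 to 0.0625 for Sqstm1. The tissues' effects ran from -0.16 to 0.18 for Nqo1, -0.15 to 0.12 for Hmox1, -0.0011 to 0.19 for Prdx1, -0.0038 to 0.15 for Txn1 and -0.0082 to 0.23 for Sqstm1.

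Over all genes, the main fits called 0 for acrylamide, but liver gave 1 call without acrylamide 27 and 2 in 1 fit of 12 arrays. The tissues' effects gave 139 with arrayWeights, 136 without liver acrylamide 30, 8 without liver acrylamide 27 and 1 without liver control 1 or lung acrylamide 30. Between the tissues, 182 of 190 member values with acrylamide and 186 of 190 in untreated mice stayed on the same side of the threshold, and the calls gained or lost stand in the text above, apart from the block below. With quantile scaling, added here after seeing the data, the log2 ratio of Nfe2l2 to Keap1 differed by -0.0038 between acrylamide and control in lung, in place of 0.002, and its other comparisons kept their direction. The stricter promoter motif was in 1 gene in place of 4. 

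No paired analysis was possible within a tissue because its groups share no title numbers. Between tissues, numbers 29, 30 and 4 recur. Deviations of same-numbered arrays correlated at -0.02, -0.16 and 0.01 over 23300 genes, and 1 of 3 arrays matched its own number best. This gave no sign of pairing, but with so few arrays it cannot exclude that same-numbered arrays came from the same mouse. With the number as a replicate block (consensus correlation -0.18), 0 members were called for the tissues' effects, 9 between untreated tissues and 9 with acrylamide, where Hmox1 stood at 0.33 (adjusted p = 0.0988). Of all 23300 genes this block fit called 0, 16875 and 17041 in the same order. The number of arrays, 3 a group, limits all these values, and a missing call does not show that a gene did not change.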

Other observations

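Among 20415 genes tested in both tissues, the 3 genes whose values followed those of Nqo1 most closely over the 12 arrays, after the mean of each tissue was taken off, were Zar1 (Pearson r = 0.86, Spearman rho = 0.78), Adam23 (r = 0.86, rho = 0.90) and B130034C11Rik (r = 0.85, rho = 0.66). For Hmox1 they were Aste1 (r = 0.94, rho = 0.85), Eme2 (r = 0.93, rho = 0.90) and Nhp2 (r = 0.90, rho = 0.65). None is in the lists of NRF2 partners or targets read here. With only 3 of 20415 genes taken for each, that absence was likely in any case and says nothing of those lists. The values given are the highest of many correlations over arrays that share their scaling, given as a description.

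Read array by array, the median of the 10 genes over the control mean of the same tissue was 0.02, 0.02 and -0.01 on lung acrylamide 28, 29 and 30, against 0.07, 0.05 and -0.13 on lung control 4, 5 and 6. In liver it was -0.14, -0.12 and 0.04 on acrylamide 27, 29 and 30, against -0.16, 0.11 and 0.09 on control 1, 3 and 4. The acrylamide arrays lay inside the range of the controls in both tissues. With quantile scaling liver acrylamide 27, at -0.0759, lay just below the lowest liver control, control 1 at -0.0684. The other acrylamide arrays stayed inside, as did all of them with median scaling.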
